A study of Mus musculus with 13 samples.

Results

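The genes described here are 33 genes of the stem cell and differentiation steps of spermatogonia, the germ cells at the wall of the seminiferous tubule, out of 25965 genes in a table of RNA levels from mouse testis. They were picked by symbol from a list of 34 names of undifferentiated and differentiating spermatogonia. The rule holds no measured value, but the list was drawn up with earlier results of these data known. The name left over, Plzf, is a synonym of Zbtb16 in RefSeq, which is on the list already. All libraries came from whole testes of mice aged 15 weeks, with the outer tunica removed. By their labels, 3 libraries were wild type (WT), 4 were heterozygous for Wfdc15a (Het, Wfdc15a+/-) and 6 were homozygous knockouts (KO, Wfdc15a-/-). The study pooled the WT and Het mice as controls (n = 7) and set them against the KO mice (n = 6), to ask what Wfdc15a does in spermatogenesis. No other allele or agent is named, and the sources used here do not describe the mutation. The titles also carry a number of unstated meaning, called the title number here. Title number 1 was given to Het replicate 1 and KO replicates 1 to 3, and title number 2 to the WT libraries, Het replicates 2 to 4 and KO replicates 4 to 6.

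Spermatogenesis is fed by a small pool of undifferentiated spermatogonia that includes the stem cells. GDNF, made by somatic cells of the niche, acts on these cells through the receptors GFRA1 and RET, and transcription factors such as ID4, ZBTB16 and ETV5 are known for keeping them undifferentiated. Under retinoic acid the cells begin to differentiate, express the receptor KIT, whose ligand KITL comes from Sertoli cells, divide several times and enter meiosis. SOHLH1, SOHLH2 and the DMRT proteins act at this transition, and DNMT3A and DNMT3B are DNA methyltransferases. In the adult testis spermatogonia are few beside spermatocytes and spermatids, so most of these genes are minor transcripts of the whole organ.

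The reads in listed genes came to 4.22 to 10.05 M per library, with 7.56 ± 1.58 M in the controls (SD, n = 7) and 6.43 ± 1.42 M in the KO-labelled libraries (n = 6), with an exact two-sided permutation p of 0.206. Values are in RPM, reads normalized to the library total, and 3 reads, the limit that a count of 0 allows, are worth 0.27 to 0.665 RPM for counting error only. Wfdc15a itself was at 65.5 ± 12.5 RPM in controls and 44.6 ± 21.8 RPM in the KO-labelled libraries (log2 difference -0.66, exact two-sided permutation p = 0.0338). KO replicates 1 to 3, of title number 1, were at 31.5, 19.4 and 33.4 RPM, below every control (the lowest at 53.5 RPM), while KO replicates 4 to 6, of title number 2, were at 54.1, 48.1 and 81.3 RPM. The groups overlapped, so the label alone names these libraries, and a gene is said to have risen or fallen in them relative to the controls. The p rose to between 0.0541 and 0.0821 when WT replicate 1, Het replicate 2, Het replicate 4 or any of KO replicates 1 to 3 was left out. As p-values measure only the spread between libraries, and the sources used here give no litters or batches, a technical part in that spread was not tested. In the KO-labelled libraries, summed RNA of 12 Leydig cell markers was 5973 to 10419 RPM, against 2508 to 4464 RPM in the controls. Summed RNA of 20 tested Sertoli cell markers was 3014 to 4427 against 1625 to 2732 RPM, and that of 13 elongating spermatid markers 9026 to 12861 against 18491 to 23249 RPM. The part of these differences in the results below was not tested, and in bulk RNA fewer cells of a type and less RNA per cell cannot be told apart.

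Of the 33 genes, 27 had a mean of at least 1 RPM over the 13 libraries and were tested, by limma on log2(RPM + 1) with Benjamini-Hochberg adjustment over all 16235 genes and a threshold of 0.05. The other 6 were Nanos2, Pax7, Eomes, Sox3, Utf1 and Gdnf. Reads were present in every library for 26 of the 33, while 10 had under 3 reads in at least 1 library. Among the 27, 4 rose in the KO-labelled libraries (Kit, Kitl, Tspan8 and Top2a) and 1 fell (Lhx1). Of all genes tested 18.4% rose and 6.18% fell, so the members' shares of 14.8% and 3.70% are near, and below, those of all genes. The median log2 difference was 0.24 over the 27 and 0.16 over all genes. The fitted difference was above 0 for 20 of the 27 and below 0 for 7. An unadjusted limma p under 0.05 was found for 10 of the 27 and for 5980 of all 16235 genes, a similar share. Median-of-ratios scaling moved the median of all genes to 0.02 and quantile normalization to -0.01, and the share of calls that were higher went from 74.9% to 49.9% and 48.8%. Each difference below stands beside this general shift of 0.16. Gfra1, Lhx1, Sall4, Lin28a, Foxo1, Dnmt3a, Dnmt3b and Uchl1 each overlap a gene listed on the opposite strand, and their values are uncertain to that extent, since the strand of counting was not stated.

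**Figure D1:**
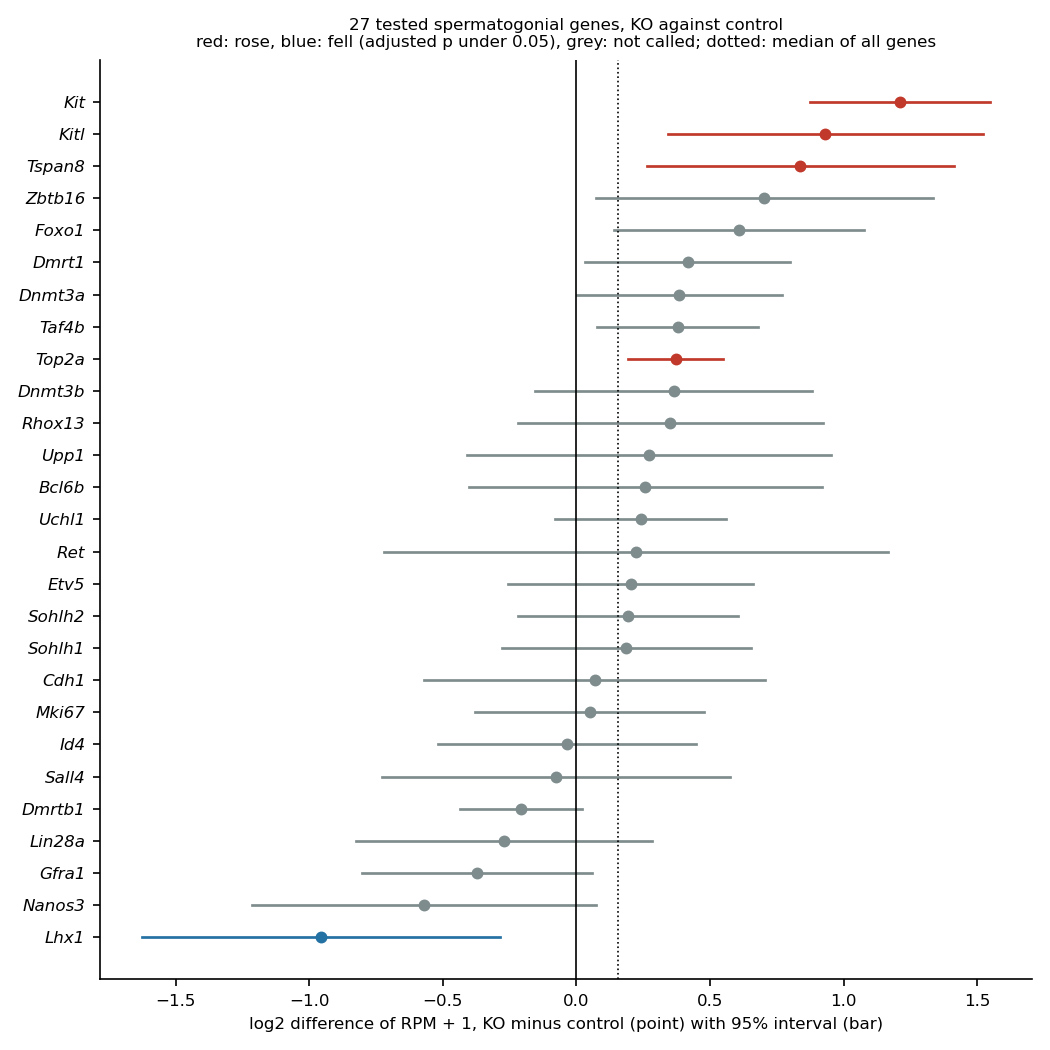
Log2 difference of RPM + 1 between the KO-labelled libraries (n = 6) and the controls (n = 7) for each of the 27 tested spermatogonial genes, with its 95% interval; the dotted line is the median of all genes tested. Kit lies highest at 1.21 and Lhx1 lowest at -0.96, and most intervals include 0.

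The lowest adjusted p among these genes was that of Kit, the receptor tyrosine kinase that marks spermatogonia as they differentiate. Kit was at 32.7, 43.1 and 62.0 RPM (lowest, median and highest) in the controls and at 80.8, 98.2 and 140.1 RPM in the KO-labelled libraries. Every KO-labelled library lay above every control, which held for 5.06% of all genes tested and for 1 of the 27, Kit itself. The means were 45.2 ± 11.2 (SD, n = 7) and 105.6 ± 25.7 RPM (n = 6), a 2.31-fold difference of RPM + 1 (log2 1.21, SE 0.16, limma adjusted p = 2.29e-05). Of all genes tested, 98.4% had a lower fitted difference. With 197 to 1127 reads per library, depth was not what limited this value. The gene was called in each of 27 settings of the fit, including each library left out in turn, with log2 differences of 0.93 to 1.46. KIT is also known in Leydig cells, and a truncated form in spermatids. With 1 value for each gene, the table cannot separate these sources.

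**Figure D2:**
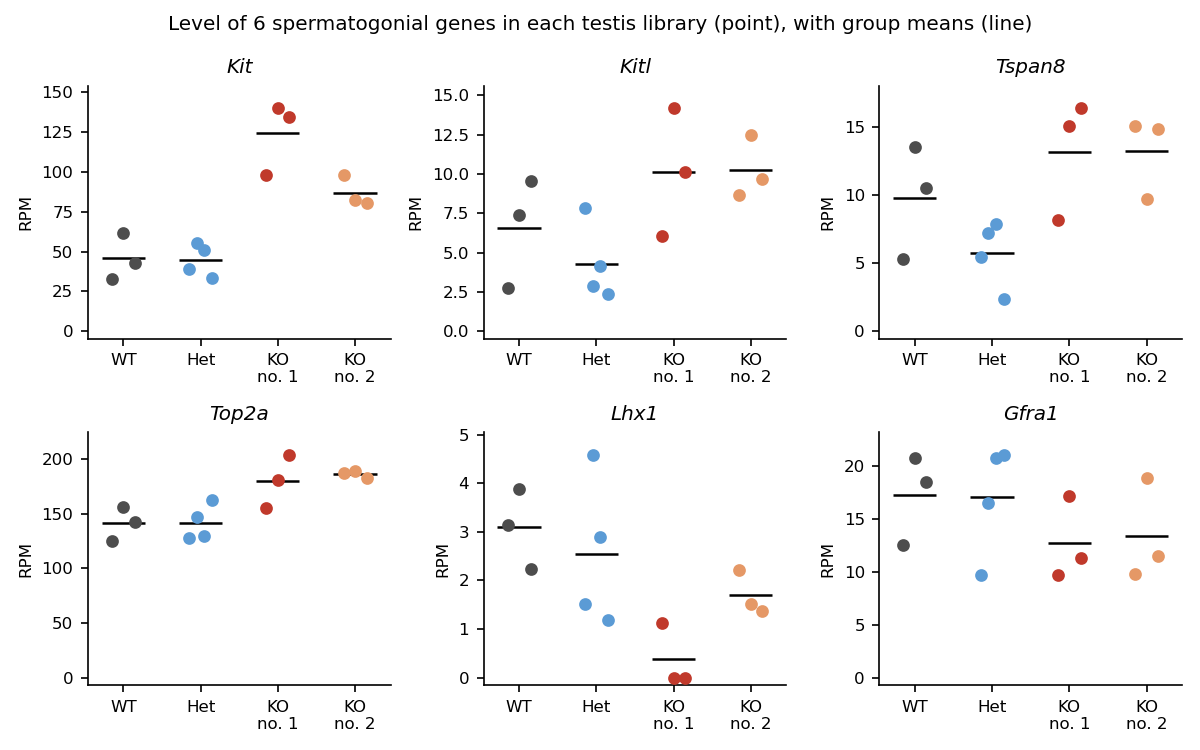
Level in RPM of 6 spermatogonial genes in each library (points) of the WT, Het, and title number 1 and 2 KO groups, with group means (lines); each panel has its own linear axis. The 6 KO-labelled libraries lie between 80.8 and 140.1 RPM for Kit, above all 7 controls, while the groups overlap for the other 5 genes.

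Kitl, the ligand of KIT, also rose. It was at 2.36, 4.13 and 9.52 RPM (lowest, median and highest) in the controls and 6.03, 9.89 and 14.2 RPM in the KO-labelled libraries. All 6 of the latter lay above the control mean and 4 lay above every control, but the groups overlapped. The means were 5.26 ± 2.91 and 10.2 ± 2.86 RPM (log2 0.93, SE 0.28, limma adjusted p = 0.0200). The higher controls were WT replicates 2 and 3 and Het replicate 1, at 7.38, 9.52 and 7.83 RPM. The call did not hold against the WT libraries alone (log2 0.65, adjusted p = 0.260), with quantile normalization (0.107) or without KO replicate 2 (0.0505). It was also lost with the replicate number as a block in the fit (0.0561), with title number 2 only (0.0641) and with either KO number alone, as given below. Kitl is known as a product of Sertoli cells, of whose 20 tested markers 14 rose and none fell, with a median of 0.73. Relative to the mean log2 level of those markers, Kitl ran from -0.70 to 0.95 in the controls and from -0.56 to 0.71 in the KO-labelled libraries, which overlap. GDNF, the other niche ligand on the list, was too low to test, with 0 to 8 reads per library. Gdnf lay at 0.28 to 1.01 RPM in the controls and at 0 to 0.56 RPM in the KO-labelled libraries, levels near or under that of 3 reads. Without the filter on low values Gdnf was called lower (log2 -0.49, adjusted p = 0.0253).

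The promoters of the receptor and its ligand are shown because both genes rose and because SOHLH1 and SOHLH2, on the list as well, bind the E-box (CANNTG, which reads the same on both strands). The windows are RefSeq's for GRCm38.p6, the assembly of mm10, from 250 bases before to 50 after the annotated start. The Kit window is chr5:75574737-75575036 on the plus strand and that of Kitl chr10:100015571-100015870 on the plus strand. The gene starts of the deposited table, 75574916 and 100015630, fall inside these windows. Kit has 2 windows in this source, of which 1 is shown. Each sequence holds 1 E-box, in capitals.
Kit: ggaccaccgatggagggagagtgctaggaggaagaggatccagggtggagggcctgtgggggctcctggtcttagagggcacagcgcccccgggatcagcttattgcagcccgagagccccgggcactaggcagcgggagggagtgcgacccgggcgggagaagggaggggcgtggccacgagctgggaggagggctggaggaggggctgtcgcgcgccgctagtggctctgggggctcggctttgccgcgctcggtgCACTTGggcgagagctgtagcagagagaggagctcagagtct
Kitl: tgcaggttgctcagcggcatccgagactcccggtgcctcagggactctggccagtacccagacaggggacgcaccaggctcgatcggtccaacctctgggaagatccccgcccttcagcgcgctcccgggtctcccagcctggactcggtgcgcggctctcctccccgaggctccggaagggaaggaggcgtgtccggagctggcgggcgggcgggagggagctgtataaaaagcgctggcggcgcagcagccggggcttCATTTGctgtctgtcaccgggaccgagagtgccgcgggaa
An E-box was present in 72.3% of all 32851 promoter windows of this length and in 63.6% of the 33 windows found for 25 of the 33 genes. Among the genes with windows, Sohlh1 had the most E-boxes (5). Tspan8 and Lhx1 had none, and neither had Id4, Nanos2, Eomes, Lin28a, Utf1, Pax7 and Uchl1. The core GGAA bound by ETS factors such as ETV5 was in 96.0% of all windows and 93.9% of these. For neither motif was the share in these windows above that of all windows.

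Among the other genes of differentiating spermatogonia no change was called. Dmrtb1, a DM-domain factor, was the most abundant member. It was at 216, 243 and 342 RPM in the controls and at 185, 223 and 273 RPM in the KO-labelled libraries (log2 -0.21, SE 0.11, limma adjusted p = 0.175). The groups overlapped, and 3 KO-labelled libraries, replicates 1 to 3, lay below every control. Median-of-ratios scaling gave a call for Dmrtb1, lower (log2 -0.36, adjusted p = 0.0210). Dmrt1, a related factor that is also known in Sertoli cells, ran from 9.52 to 17.1 RPM in the controls and from 11.3 to 22.1 RPM in the KO-labelled libraries (log2 0.42, SE 0.18, adjusted p = 0.104), and was called higher without KO replicate 2 (0.0438). The levels of Sohlh1 and Sohlh2, basic helix-loop-helix factors of early differentiation, differed by less than the spread between libraries. Sohlh1 was at 4.80 ± 1.49 RPM in controls and 5.54 ± 1.35 RPM in the KO-labelled libraries (log2 0.19, 95% interval -0.28 to 0.65). Sohlh2 was at 12.3 ± 4.08 and 13.7 ± 2.04 RPM (log2 0.19, 95% interval -0.22 to 0.60). Both turned negative under quantile normalization. The DNA methyltransferase genes Dnmt3a and Dnmt3b had log2 differences of 0.38 (adjusted p = 0.134) and 0.36 (0.305), and the X-linked homeobox gene Rhox13 one of 0.35 (0.373). Dnmt3a lay above the control mean in all 6 KO-labelled libraries and above every control in 3 of them, yet it missed the threshold. The group as a whole, with Kit, had 8 tested genes, 1 of which rose, and a median log2 difference of 0.36.

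Ratios of Kit to other genes of these steps were then taken within each library. The ratio of Kit to Dmrtb1 RPM was 0.0957 to 0.255 in the controls and 0.296 to 0.675 in the KO-labelled libraries, with no overlap. Its ratio to Gfra1, the GDNF receptor of undifferentiated cells, was 1.58 to 4.03 and 4.36 to 11.9, again with no overlap. A ratio within a library does not depend on its scaling. Kit RPM alone did not overlap, and the log2 differences of Dmrtb1 and Gfra1 were -0.21 and -0.37. The separation of these ratios is therefore not independent of that of Kit. The ratio to Stra8, a retinoic acid target of cells about to enter meiosis, did overlap (1.99 to 5.08 and 2.33 to 5.77), as did the ratio to Kitl (4.53 to 19.2 and 6.60 to 16.3). Relative to the mean log2 level of the Leydig markers, Kit ran from -0.44 to 0.31 in the controls and from 0.00 to 0.54 in the KO-labelled libraries, which overlap. Relative to the Sertoli markers it ran from -0.36 to 0.44 and from 0.25 to 0.94, which also overlap. The groups overlapped as well relative to the peritubular, macrophage and endothelial markers. Relative to the early meiotic markers, of which Stra8 is one, Kit ran from -0.41 to 0.45 and from 0.55 to 1.53. Those ranges do not overlap, as with Kit itself. These ratios were chosen after the values were seen and have no test.

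The receptors of GDNF were not called. Gfra1, the binding subunit, was at 9.72, 18.5 and 21.1 RPM in the controls and at 9.67, 11.4 and 18.8 RPM in the KO-labelled libraries. KO replicates 2 and 5 lay above the control mean and the other 4 at 9.67 to 11.5 RPM, and the groups overlapped over most of their range. The means were 17.1 ± 4.48 and 13.03 ± 3.95 RPM (log2 -0.37, SE 0.21, limma adjusted p = 0.201). With quantile normalization the call was lower (log2 -0.65, adjusted p = 0.0255). Ret, the signalling subunit, scattered more than any such difference, from 0 to 7.56 RPM in the controls and from 0.654 to 4.71 RPM in the KO-labelled libraries (log2 0.22, 95% interval -0.72 to 1.17). Reads of Gfra1 and of its opposite-strand neighbour Gm16277 cannot be told apart here.

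Of the stem cell regulators, 10 were tested, and Lhx1 alone was called. Lhx1, a LIM homeobox gene that GDNF is known to induce in cultured spermatogonia, was at 1.18, 2.89 and 4.58 RPM (lowest, median and highest) in the controls and at 0, 1.25 and 2.22 RPM in the KO-labelled libraries. It had no reads in KO replicates 2 and 3, where a count of 0 allows up to 0.373 and 0.491 RPM. KO replicate 1, at 1.12 RPM, also lay below every control, and the other 3 overlapped the controls. The means were 2.78 ± 1.23 and 1.04 ± 0.88 RPM (log2 -0.96, SE 0.32, limma adjusted p = 0.0344). With 0 to 51 reads per library this is a sparsely counted gene, which also overlaps the antisense gene 1500016L03Rik. With limma-voom on the recovered reads, which adds less to a low count, the log2 difference was -2.37 (adjusted p = 0.0330). The call was lost without any single one of 6 libraries, WT replicates 1 and 2, Het replicates 2 and 3 and KO replicates 2 and 3 (adjusted p = 0.0571 to 0.0927). It was also lost against WT alone (0.0950), against Het alone (0.125), with title number 2 only (0.360) and without the filter on low values (0.0532).

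Foxo1, a forkhead factor needed to keep and to launch spermatogonial stem cells, came closest to the threshold of the others. Foxo1 was at 2.86, 4.06 and 4.86 RPM in the controls and at 3.64, 7.16 and 10.8 RPM in the KO-labelled libraries, 5 of which lay above every control (log2 0.61, SE 0.23, limma adjusted p = 0.0532). It was called higher with a pseudocount of 2 RPM (adjusted p = 0.0487) and without KO replicate 1 (0.0168) or 6 (0.0464). Taf4b, a germ cell form of a TFIID subunit, was at 31.3 ± 4.42 and 41.5 ± 9.33 RPM (log2 0.38, SE 0.14, adjusted p = 0.0608), with 4 KO-labelled libraries above every control. Without KO replicate 2 (0.0266) or 6 (0.0351) Taf4b was called higher. Zbtb16, also known as PLZF and a repressor that maintains the undifferentiated state, was at 1.26 to 5.04 RPM in the controls and 2.38 to 13.5 RPM in the KO-labelled libraries (log2 0.70, SE 0.30, adjusted p = 0.0954). Its higher values were those of KO replicates 5 and 6, at 13.5 and 7.23 RPM, and without KO replicate 1 Zbtb16 was called higher (0.0426).

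For several genes known from the most primitive spermatogonia the fitted difference was small. Id4, an inhibitor of helix-loop-helix factors and a marker of the stem cells, was at 6.37 ± 2.19 and 6.11 ± 1.74 RPM (log2 -0.04, 95% interval -0.52 to 0.45). Etv5, an ETS factor downstream of GDNF and FGF, was at 11.6 ± 4.58 and 12.9 ± 2.40 RPM (log2 0.20, 95% interval -0.26 to 0.66). The intervals still include differences of up to 0.66 on the log2 scale, so equal levels were not shown. Sall4, a zinc finger factor of undifferentiated cells, was at 4.20 ± 1.85 and 4.25 ± 2.60 RPM (log2 -0.08), and the pluripotency-linked RNA-binding gene Lin28a was at 1.56 ± 0.92 and 1.02 ± 0.19 RPM (log2 -0.27). Nanos3, an RNA-binding repressor of early germ cells, was below the control mean in all 6 KO-labelled libraries (log2 -0.57, adjusted p = 0.187), a mean that WT replicate 1 raised with 5.06 RPM. Bcl6b, another GDNF-induced factor, had a log2 difference of 0.26 (adjusted p = 0.596).

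The rarest of these regulators were at the edge of detection. Nanos2, the repressor of the most primitive cells, had no reads in 11 libraries and at most 4 reads in any. Pax7, which marks a very small set of stem cells, had no reads in any control and at most 2 in a KO-labelled library. Eomes had no reads in 9 libraries and Sox3, an X-linked factor of committed progenitors, in 7. Utf1, a chromatin factor, ran from 0.168 to 1.71 RPM in the controls and 0.222 to 1.54 RPM in the KO-labelled libraries. None of these 5 was called without the filter on low values.

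Of the 4 surface and metabolic markers of undifferentiated cells, Tspan8 rose. Tspan8, a tetraspanin used to enrich for stem cells, was at 2.36, 7.19 and 13.5 RPM in the controls and at 8.13, 14.9 and 16.4 RPM in the KO-labelled libraries. All 6 were above the control mean of 7.45 RPM and 4 were above every control, so the groups overlapped. The means were 7.45 ± 3.69 and 13.2 ± 3.38 RPM (log2 0.84, SE 0.28, limma adjusted p = 0.0307). The call was lost without any single one of 7 libraries (WT replicate 1, Het replicates 1 and 4, KO replicates 2, 3, 4 and 6, with adjusted p = 0.0560 to 0.0701). Against WT alone the difference was 0.44 (adjusted p = 0.428), under median-of-ratios scaling 0.70 (0.0706) and under quantile normalization 0.55 (0.153), and without the filter on low values the adjusted p was 0.0694. Uchl1, a ubiquitin hydrolase that is abundant in spermatogonia, was at 33.4 ± 7.58 and 39.5 ± 7.87 RPM (log2 0.24, adjusted p = 0.268). The uridine phosphorylase gene Upp1 was at 0.379 to 1.88 RPM and 0.497 to 5.32 RPM (log2 0.27), and Cdh1, which codes for E-cadherin, at 0.700 to 2.68 RPM and 0.280 to 3.95 RPM (log2 0.07).

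Of the pair of cell division genes, Top2a rose and Mki67 was not called. Top2a, the DNA topoisomerase of dividing cells, which spermatocytes also use, was at 125, 142 and 162 RPM in the controls and at 155, 185 and 204 RPM in the KO-labelled libraries. Of the latter 5 lay above every control, and KO replicate 1 at 155 RPM was the one that overlapped. The means were 142 ± 14.5 and 183 ± 15.9 RPM (log2 0.37, SE 0.086, limma adjusted p = 0.00361). At 844 to 1632 reads per library it was among the best counted of these genes, and a difference of 1.29-fold of RPM + 1 was called. With median-of-ratios scaling the difference was 0.22 and the call was lost (adjusted p = 0.0695). Mki67, the Ki-67 antigen of cycling cells, was at 11.2 ± 1.26 and 12.2 ± 4.35 RPM (log2 0.05, adjusted p = 0.891). The 6 KO-labelled libraries spread from 6.07 to 17.1 RPM, with 3 above and 2 below every control.

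The Top2a promoter is shown for its repeated CCAAT boxes, a sequence known in the promoters of cell cycle genes. The window is chr11:99024140-99024439 on the minus strand of GRCm38.p6, from RefSeq, and the 6 boxes in capitals are CCAAT on either strand, which reads ATTGG where the box lies on the strand not shown.
Top2a: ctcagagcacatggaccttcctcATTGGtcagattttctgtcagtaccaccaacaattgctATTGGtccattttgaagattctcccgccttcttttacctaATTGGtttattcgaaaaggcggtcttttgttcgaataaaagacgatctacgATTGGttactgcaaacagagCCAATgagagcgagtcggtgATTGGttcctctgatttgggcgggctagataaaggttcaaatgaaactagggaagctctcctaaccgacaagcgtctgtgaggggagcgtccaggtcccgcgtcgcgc
A CCAAT box was in 37.4% of all 32851 windows and 36.4% of the windows of these genes, and 6 or more were in 26 windows (0.0791%). Mki67, which was not called, had 3 boxes in its window. This motif was chosen after the sequence was read, and no relation of the boxes to the change was tested.

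**Figure D3:**
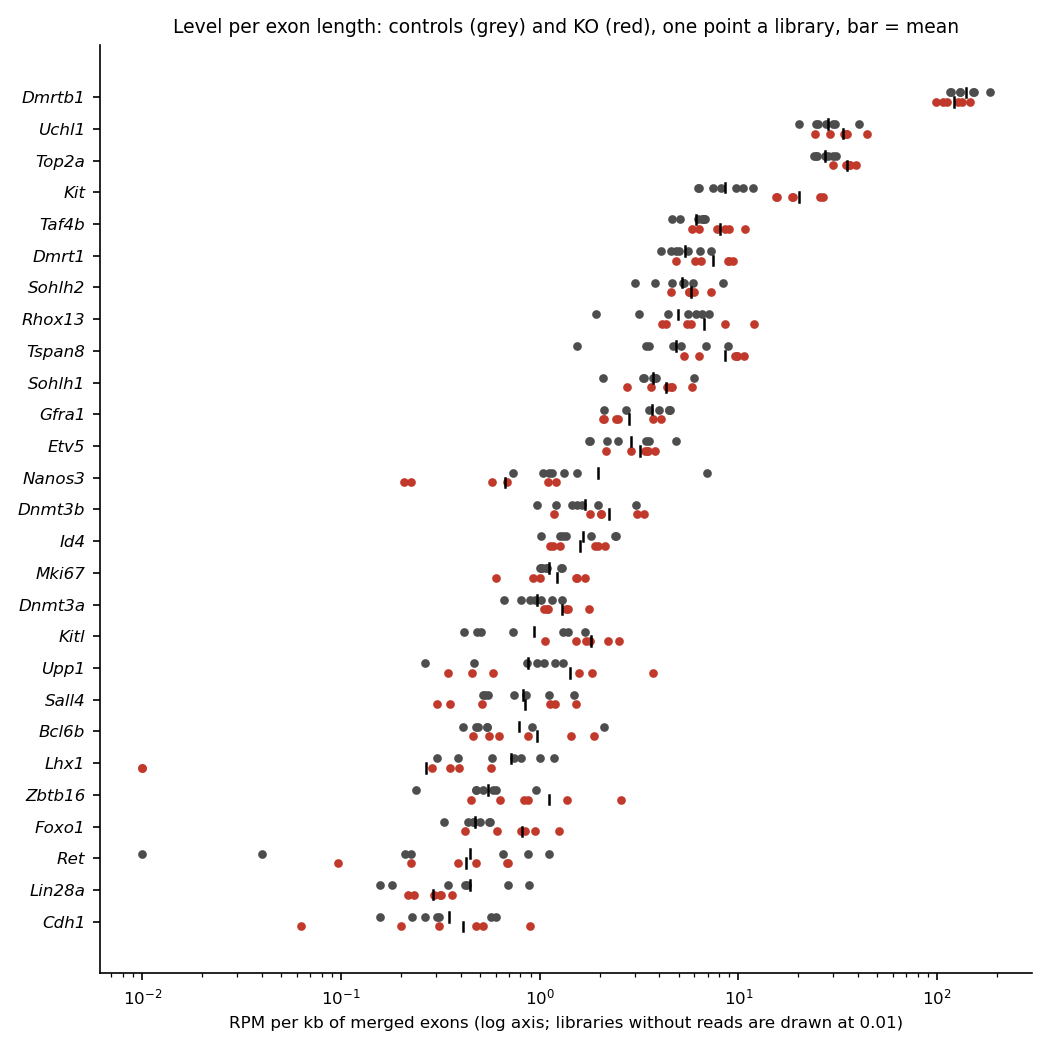
Level of the 27 tested spermatogonial genes per kb of merged exons in each control library (grey, n = 7) and each KO-labelled library (red, n = 6), on a log axis, ordered by the control mean (bars). Dmrtb1 stands above all others, and the groups are apart only for Kit.

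Per length of exon, Dmrtb1 was the highest of the 33 genes in the controls, at 140.2 ± 23.9 RPM per kb (SD, n = 7). Uchl1 followed at 28.4 ± 6.44 and Top2a at 27.1 ± 2.78 RPM per kb, which overlapped. Kit came next at 8.60 ± 2.14 RPM per kb, below all values of Top2a. From Kit downwards each gene's control range overlapped that of its neighbour in the order, through Taf4b (6.08 ± 0.86), Dmrt1 (5.40 ± 1.12) and Sohlh2 (5.19 ± 1.72) to Gdnf (0.197 ± 0.070) and Pax7 with no reads. Of 32 neighbouring pairs in the order, 30 overlapped, and only the steps below Dmrtb1 and below Top2a lay beyond the spread of the controls. Exon lengths were taken from GENCODE and all isoforms were merged, so a gene with a long rarely used exon is placed too low.

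**Figure D4:**
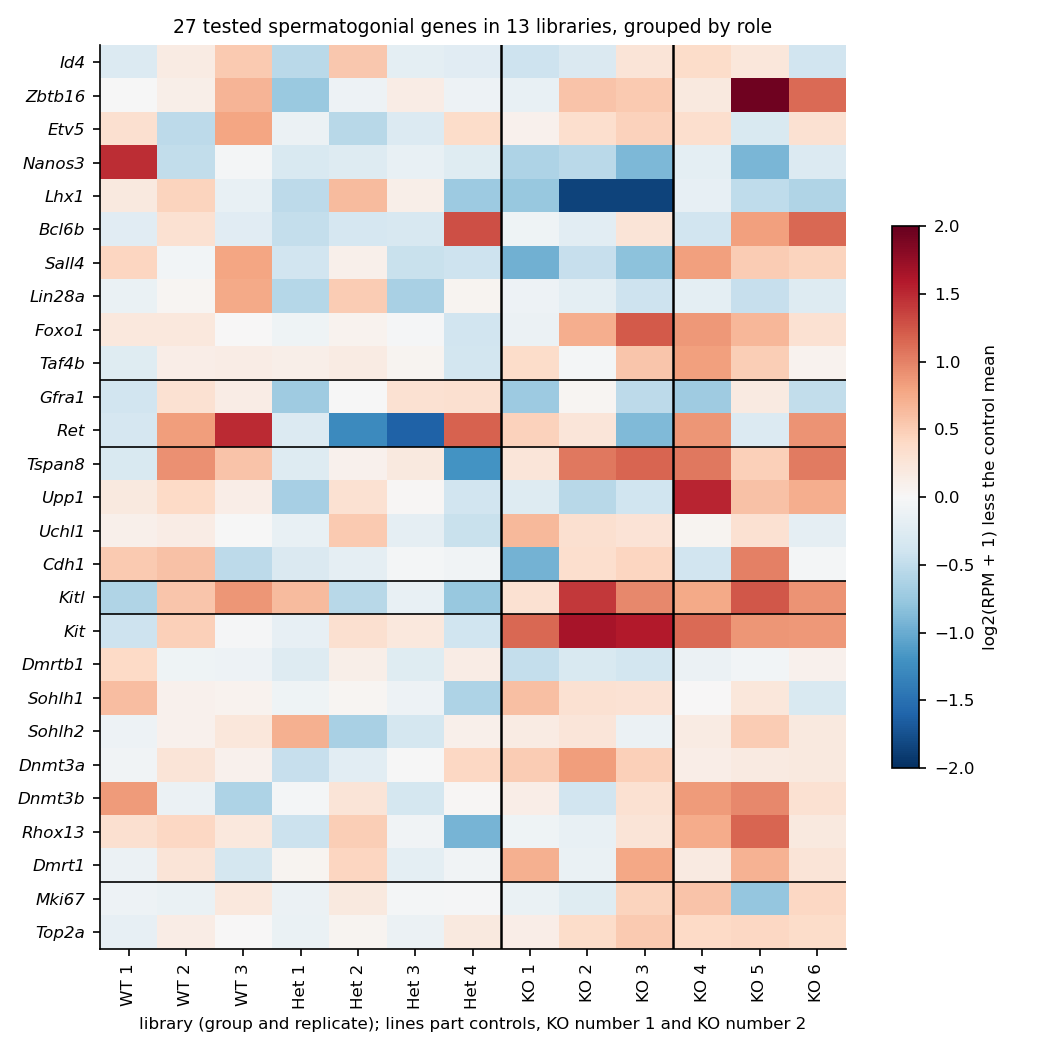
Log2(RPM + 1) less the control mean for the 27 tested spermatogonial genes (rows, grouped by role) in the 13 libraries (columns); red is higher and blue lower, on a scale that ends at -2 and 2. Kit is red in all 6 KO-labelled libraries, while Sall4 and Upp1 are blue in KO replicates 1 to 3 and red in KO replicates 4 to 6.

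Between the KO-labelled libraries of the 2 title numbers, several of these genes had different levels that did not pass the test. In a limma fit with WT, Het and each KO number as groups, 0.345% of all genes (56) were called between the KO numbers and none of the 27. At an unadjusted p under 0.05 there were 5 of the 27 and 2049 of all genes. Sall4 was at 1.54, 2.61 and 1.80 RPM in KO replicates 1 to 3 and at 7.76, 6.07 and 5.74 RPM in KO replicates 4 to 6. The numbers did not overlap, and the controls at 2.62 to 7.56 RPM lay between and across them (log2 1.34 for number 2 over number 1, SE 0.33, limma adjusted p = 0.0817). Kit, Dmrtb1, Lhx1, Sohlh1, Dnmt3a and Dnmt3b did not overlap between the numbers either. The share of all genes for which this held was not counted. Upp1 was at 0.841, 0.497 and 0.654 RPM in number 1 and at 5.32, 2.28 and 2.64 RPM in number 2, all 3 of which lay above every control (log2 1.35, SE 0.39, adjusted p = 0.145). Upp1 was sparsely counted, with 3 to 24 reads per library. Relative to all 7 controls, the means of Sall4 and Upp1 had opposite signs in the 2 numbers, which a pooled value hides. Opposite signs with smaller gaps were also found for Bcl6b, Ret, Sohlh1, Cdh1 and Id4. Sall4 was -0.75 from the control mean in number 1 and 0.59 in number 2, and Upp1 -0.40 and 0.95. Het replicate 1, the only control of number 1, was at 2.78 RPM for Sall4 and 0.379 RPM for Upp1. For any gene, a difference of KO number 1 from these controls cannot be told apart from one between title numbers.

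**Figure D5:**
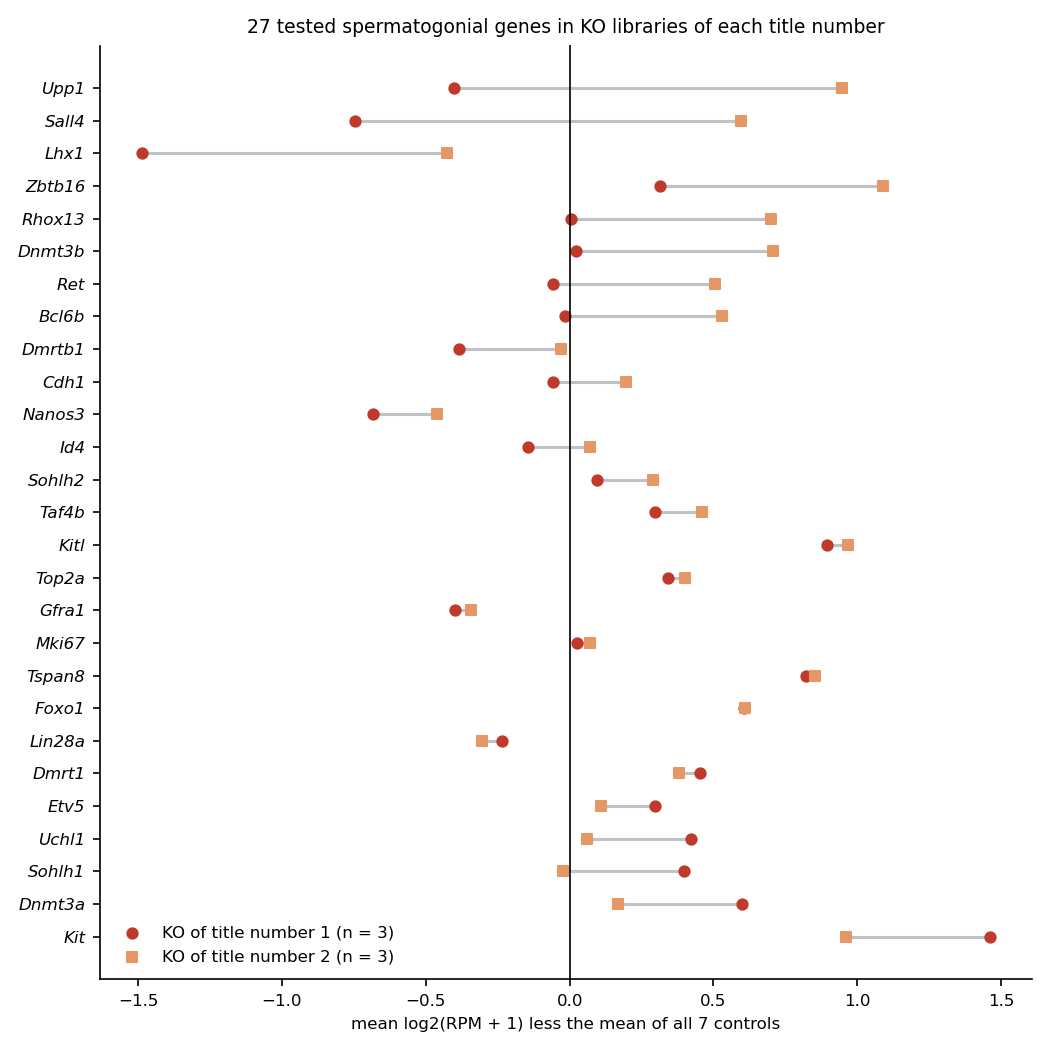
Mean log2(RPM + 1) of the KO-labelled libraries of title number 1 (circles, n = 3) and number 2 (squares, n = 3) less the mean of all 7 controls, for the 27 tested spermatogonial genes, ordered by the gap. Kitl, Tspan8, Top2a and Foxo1 have nearly the same value in both numbers. Sall4 and Upp1 have the widest gaps and lie on opposite sides of 0, as do Bcl6b, Ret, Sohlh1, Cdh1 and Id4.

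Kit lay above the controls in both numbers, by 1.46 in number 1 and 0.96 in number 2 on the log2 scale (difference -0.50, SE 0.22, limma adjusted p = 0.347). Its values were 98.4, 140.1 and 134 RPM in KO replicates 1 to 3 and 97.9, 82.1 and 80.8 RPM in KO replicates 4 to 6. Each number against all controls still gave a call for Kit and for Top2a. Kitl was 0.90 and 0.97 from the controls, Tspan8 0.82 and 0.85 and Top2a 0.34 and 0.40, close to each other in each case. Kitl (adjusted p = 0.0948 and 0.0828) and Tspan8 (0.111 and 0.118) missed the threshold in either number alone. Lhx1 was -1.49 in number 1 and -0.42 in number 2 (difference 1.06, SE 0.42, adjusted p = 0.308), and with number 2 alone its call was lost (adjusted p = 0.428). Dmrtb1 was -0.39 in number 1, where it was called lower (adjusted p = 0.0313), and -0.03 in number 2.

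The WT and Het controls gave no call for any of these genes. None of 16235 genes passed in the limma comparison of Het with WT (0.0% of all genes), against 1079 with an unadjusted p under 0.05, and 1 of the 27 was among those, Sall4 (log2 -0.68, SE 0.31, adjusted p = 0.716). No other tool was run for it. Of the 27, 23 had a fitted difference below 0, and the median was -0.24 against -0.04 for all genes. Kit was at 45.9 ± 14.8 RPM in WT (n = 3) and 44.6 ± 10.2 RPM in Het (n = 4), with a log2 difference of -0.02 (95% interval -0.44 to 0.40). Top2a was at 141 ± 15.6 and 142 ± 16.1 RPM. Tspan8 was at 9.77 ± 4.19 RPM in WT and 5.71 ± 2.45 RPM in Het (log2 -0.69, SE 0.36, adjusted p = 0.772), and Kitl at 6.54 ± 3.47 and 4.30 ± 2.47 RPM, and against WT alone the differences of both genes were the smaller ones given above.

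Other genes of the same steps were counted from lists written with earlier results of these data known. Of 42 further spermatogonial genes that were tested, 12 rose and 1 fell, with a median of 0.26 beside 0.16 for all genes. The counts of this list and of those below stand beside 18.4% of all genes tested that rose and 6.18% that fell. Of them the lowest adjusted p belonged to Itgb1, an integrin subunit (log2 0.99, limma adjusted p = 3.01e-05), Sdc4, a syndecan (0.90), Ccnd2, a cyclin of differentiating spermatogonia (1.19), and Tdrd1, a germ granule protein (0.42). The retinoic acid target Stra8 rose as well (log2 0.84), from 11.4 to 17.3 RPM in the controls to 14.0 to 43.0 RPM in the KO-labelled libraries. Itgb1 and Sdc4 are also known in somatic cells. The gene that fell was Ngfr, a neurotrophin receptor (log2 -0.72).

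Of 30 tested genes of niche signals, 9 rose and 2 fell, with a median of 0.36. Those with the lowest adjusted p were Aldh1a1, which makes retinoic acid (log2 0.99), Il6st, the shared receptor of the interleukin 6 family (1.34), Cxcl12, a chemokine of the niche (0.96), and Gfra2, the neurturin receptor, which fell by 0.55. The other gene that fell was Jag1, a Notch ligand (log2 -0.72). Of 29 genes of signalling below KIT, 9 rose and none fell, with a median of 0.49. Stat3 rose by 1.16, the kinase gene Akt2 by 0.57, the adaptor gene Gab2 by 0.54 and the PI3 kinase subunit gene Pik3r2 by 0.54 on the log2 scale. As parts of general signalling pathways, these genes are not limited to germ cells. Of 25 further genes of cell division 3 rose, Bub1, Mcm2 and Mcm4, and none fell, with a median of 0.10, which is below that of all genes.

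Marker genes of neighbouring cell types were counted beside these results, where again 18.4% of all genes tested rose and 6.18% fell. Of 12 Leydig markers 11 rose and none fell, and the steroid enzyme gene Cyp17a1 ran from 923 to 1515 RPM in the controls and from 1988 to 3026 RPM in the KO-labelled libraries. Sox9 of Sertoli cells ran from 7.30 to 17.4 and from 16.6 to 27.2 RPM. Of 10 tested macrophage markers 8 rose, of 8 endothelial markers 2 rose, and of 8 peritubular markers 2 rose and 1 fell. Of 12 early meiotic markers, those of the cells that follow differentiating spermatogonia, 1 rose and none fell, with a median of 0.20. The 1 was Stra8, already counted among the spermatogonial genes. Sycp3 of the synaptonemal complex ran from 84.6 to 128 and from 105 to 149 RPM. Of 8 pachytene markers 4 fell, and of 13 tested elongating spermatid markers 13 fell, with a median of -1.04. Mast cells also carry KIT, and of their 8 markers Cma1, Mcpt4, Ms4a2 and Tpsb2 had no reads in any library, while Cpa3 was at 1.26 to 4.48 RPM in the controls and 0.491 to 3.10 RPM in the KO-labelled libraries. Hdc, the most abundant of the 8, was at 18.2 to 55.4 and 37.4 to 48.9 RPM (log2 0.37, adjusted p = 0.134), and Fcer1a had no reads in the controls and a mean of 0.109 RPM in the KO-labelled libraries. Whether any of these shifts had a part in the levels of Kit, Kitl or the other genes was not tested.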

How the data were processed

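Whole testis RNA of 13 mice was sequenced by Smart-seq2 (about 2 ng of total RNA and 11 PCR cycles, per the labels). The authors deposited log2 RPM values, 1 per gene and library, with FastQC 0.11.8, Trim Galore 0.6.6 and mm10 named in the submitters' processing notes. The aligner, the counting program and its strand setting: not given in the sources used here.

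RPM and reads were recovered from the deposited log2 values. The lowest value of a library equals 0.9 read and was set to 0, and at least 99.96% of values were whole reads (within 0.01 read). Libraries were grouped by their labels. Genes whose mean reached 1 RPM over the 13 libraries were fitted with limma 3.58.1 in R 4.3.3 (mean-variance trend, log2(RPM + 1), two-sided, Benjamini-Hochberg, threshold 0.05), and the fit was tested on simulated data. A fold change on this scale understates that of low genes. The alternatives were other pseudocounts, filters and scalings, limma-voom on the recovered reads, subsets by title number or control genotype, each library left out, and a replicate block. Every listed member is named, with up to 4 called genes of lowest adjusted p of each other list and set markers of other cell types. Stra8, Ngfr, Jag1 and the mast cell genes were named after their values were seen. The members and lists were chosen with earlier results of these data known. Promoter sequences are RefSeq's, found for 25 of 33 genes, and the deposited coordinates overlapped GENCODE mouse release M21 for all 33.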

Additional observations from a re-analysis of the deposited data

Results flagged for a closer look

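In 54 groups of control libraries or libraries labelled KO, 1 library stood far from the others in 2, and chance alone gives this in about 1 in 20 groups. Nanos3 was at 5.06 RPM in WT replicate 1, while the other 6 controls held 0.536 to 1.12 RPM. Bcl6b was at 7.07 RPM in Het replicate 4, while the other 6 controls held 1.39 to 3.08 RPM. Neither gene was called in any comparison.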

How the results depend on the processing

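Kit rose in all 27 settings of the comparison of KO with control, and Top2a in 26, all but median-of-ratios scaling. Of all genes tested 1712 rose and 1716 fell with median-of-ratios scaling, 1462 and 1532 with quantile normalization, 982 and 543 against WT alone, and 895 and 654 with title number 2 only, and 1170 rose in the KO libraries of number 2. Of the members, 2 rose in each of these 5 settings and in the KO libraries of number 1. None fell with a filter on a mean of 5 RPM (0, Lhx1 not being tested), against Het alone (0), against WT alone (0), in number 2 (0) or with title number 2 only (0). There were 2 that fell in number 1, with median-of-ratios scaling, with quantile normalization and with the replicate block. With each library left out, 3 to 6 members rose and 0 to 1 fell, and the calls gained were Foxo1 and Zbtb16 (without KO replicate 1), Dmrt1 and Taf4b (without KO replicate 2) and Foxo1 and Taf4b (without KO replicate 6).

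Members not called changed sign as follows. With median-of-ratios scaling Cdh1 was -0.021 and Mki67 -0.091. With quantile normalization Cdh1 was -0.11, Etv5 -0.084, Mki67 -0.25, Sohlh1 -0.075 and Sohlh2 -0.088. In number 1 Bcl6b was -0.016, Cdh1 -0.058, Ret -0.058 and Upp1 -0.40. In number 2 Id4 was 0.072, Sall4 0.59 and Sohlh1 -0.024, and with title number 2 only Sall4 was 0.53 and Sohlh1 -0.040. Against WT alone Cdh1 was -0.12, Ret -0.44 and Sohlh1 -0.069, and against Het alone Id4 was 0.067 and Sall4 0.21. With each library left out, Cdh1 ran from -0.12 to 0.27, Id4 from -0.12 to 0.055, Mki67 from -0.056 to 0.21, Ret from -0.045 to 0.47 and Sall4 from -0.26 to 0.10. The cause was not tested.

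Libraries of different groups with the same replicate number did not deviate from their group means together (10 pairs, r from -0.08 to 0.13, 1 over 0.1). Not every library was closest to its own replicate number, which was not taken as a pairing. The title number was not part of this check. Het replicate 1, the only control of title number 1, had r of 0.13, 0.11 and 0.11 with KO replicates 1 to 3. With KO replicates 4 to 6 its r was -0.13, -0.13 and -0.10. All KO deviations were taken from a common KO mean, so r above 0 with some KO libraries brings r below 0 with others. With the replicate block 3 members rose (Kit, Top2a and Tspan8) and 2 fell (Lhx1 and Dmrtb1), Bcl6b was -0.17 and Cdh1 -0.12, and of all genes 2845 rose and 985 fell. No control carries the replicate number of KO replicates 5 and 6.

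With each library left out, 11 to 114 genes were called between the KO numbers, 0 to 27 between Het and WT (27 without WT replicate 1), and the log2 difference of Wfdc15a ran from -0.86 to -0.46. Low counts limit Lhx1, Nanos3, Ret, Upp1, Cdh1, Lin28a and the 6 genes not tested.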
